A study of Homo sapiens with 36 samples.

Results

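The genes examined encode the proteins of the mitochondrial ribosome, and they were taken as every protein-coding row of the count table with a symbol of MRPL or MRPS followed by a number and, where present, the letter A, B or C. The rule found 78 genes of the 60675 in the table (19586 protein-coding), and all 78 were measured in every library. RNA sequencing was done on 36 libraries in 12 groups of 3 from SW1783, a human astrocytoma line, and HT29, a human colorectal adenocarcinoma line, all collected after 24 h. In each line, batch B held a vehicle group and groups given a hot water extract of the root of Aconitum carmichaeli Debeaux (ACD) at 500 µg/mL (high dose), 100 µg/mL (medium dose) or 20 µg/mL (low dose). Batch A held another vehicle group and a group given wortmannin at 10 µM, an inhibitor of phosphoinositide 3-kinases. The labels give the vehicle as 0.1% DMSO. The comparisons ask how the extract and the kinase inhibitor alter transcripts in a brain-derived and an intestine-derived line.

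Each organ is represented by a single line, and the lines grew in different media and at different CO2, so that line and culture conditions cannot be told apart. In SW1783 the astrocytic markers GFAP and S100B were at most 0.261 and 0.253 CPM (the count of a gene scaled to a common library total), while VIM was at 4076 CPM or more, and EPCAM and CDX2 were at most 0.202 and 0 CPM. In HT29 the epithelial markers EPCAM, KRT20, CDH1, VIL1 and CDX2 were found in all 18 libraries. Total counts ranged from 15941255 to 33866644 per library. Same-numbered vehicle libraries of batches A and B differed little from each other. Their chi-square per degree of freedom over 11911 genes was 1.46 to 1.55 in HT29 and 1.52 to 1.69 in SW1783, against 4.72 to 21.6 and 2.16 to 3.54 between vehicles with different numbers. Over the members it was 0.91 to 1.35 in HT29 and 1.09 to 1.19 in SW1783. The ACD and wortmannin comparisons of a line may therefore rest on the same control material, and their values are given side by side without a comparison between them. Whether replicates came from separate cultures was not stated, so p-values measure only the spread between these libraries.

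The mitochondrial ribosome translates the few messages that mitochondrial DNA encodes, which are core subunits of the respiratory chain. Its ribosomal RNAs come from mitochondrial DNA, but its proteins are encoded in the nucleus, made in the cytosol and imported. Part of these proteins have counterparts in bacterial ribosomes and are called conserved here, and the others are specific to mitochondria. Of the 78 members, 26 belong to the small subunit (15 conserved and 11 mitochondria-specific) and 51 to the large subunit (30 conserved and 21 mitochondria-specific). The last, MRPS36, carries the family name but is a component of the 2-oxoglutarate dehydrogenase complex.

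Every member was expressed, with 105 to 5385 counts in any library, and the members held 0.296% to 0.531% of all counts. Their transcripts were short, with a median length of 1242 bases against 3526 bases for 10727 protein-coding genes averaging 100 or more normalized counts in SW1783, and 49 of the 78 had 1500 bases or fewer. Levels between members were compared per length, as CPM per kilobase of transcript. The median member stood at 29.4 in SW1783 vehicle and 37.0 in HT29 vehicle of batch B. In SW1783 the 3 highest members per length were MRPS24 at 127 ± 3.24 (SD, n = 3), a small subunit protein, MRPL37 at 99.7 ± 2.54 and MRPL51 at 89.9 ± 3.61, both mitochondria-specific large subunit proteins. In HT29 they were MRPL51 at 124 ± 16.1, MRPL13 at 123 ± 11.5 and MRPL37 at 109 ± 5.75. Neither their order nor their lead exceeded the spread, since MRPS12 was at 109 ± 19.5, MRPS24 at 106 ± 23.1 and MRPL12 at 105 ± 15.2. Expected counts of MRPS24, MRPL51 and MRPS12 were not whole in 28, 35 and 36 libraries. Their reads were thus divided between positions, and these levels are uncertain. The 3 lowest were MRPL42 at 4.40 ± 0.237, MRPS31 at 5.58 ± 0.46 and MRPL30 at 6.56 ± 0.303 in SW1783, and MRPL42 at 6.11 ± 0.0766, MRPL19 at 6.40 ± 0.337 and MRPS23 at 7.08 ± 1.08 in HT29. MRPL42 was last in both lines, with an annotated transcript of 15557 bases, a length that sets this scale.

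**Figure D1:**
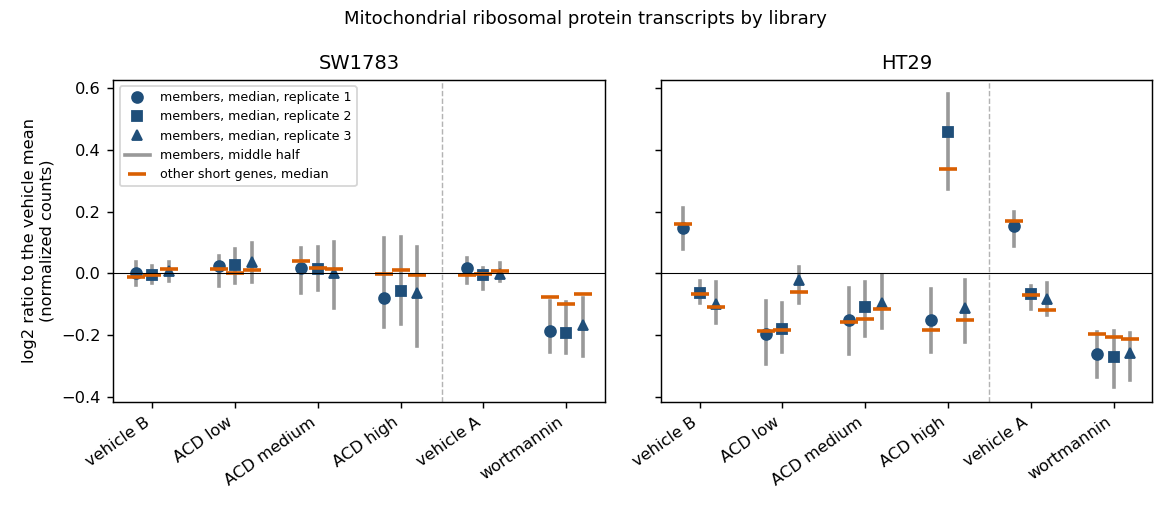
Median log2 ratio of the 78 members to their vehicle mean in each library (blue, symbols by replicate), with the interquartile range of the members (grey lines) and the median of other protein-coding genes with transcripts of 1500 bases or fewer (orange). The 3 wortmannin libraries lie between -0.17 and -0.19 in SW1783 and between -0.26 and -0.27 in HT29, and HT29 high dose replicate 2 stands alone at 0.46.

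In the main fits, every member called with wortmannin was lower than vehicle. In SW1783, 39 of the 78 members were lower than vehicle and 0 were higher at an adjusted p-value under 0.05 (DESeq2 Wald test), against 19.2% of 14511 genes called lower and 13.3% called higher. Among abundant genes, meaning those averaging 100 or more normalized counts, 23.7% were called lower. In HT29, 47 of 78 were lower and 0 were higher, against 11.7% lower and 8.06% higher of 13144 genes, and 13.9% lower among abundant genes. The members' median log2 fold change was -0.19 in SW1783 and -0.26 in HT29, where the medians over all genes tested were -0.00 and -0.01. These are falls of small size, and the study's stricter call, which also asks for a change over 1.5-fold, took in 1 lower member in SW1783 and 0 in HT29, against 0.965% and 0.768% of all genes. Beside the 0 members called higher, 0 had an unadjusted p-value under 0.05 and a rise in either line, while edgeR's quasi-likelihood test called 1 higher in SW1783 and 0 in HT29.

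The fall was seen library by library. The median member was at -0.19, -0.19 and -0.17 on the log2 scale relative to the vehicle mean in the 3 SW1783 wortmannin libraries, and at -0.26, -0.27 and -0.26 in those of HT29. All 3 wortmannin libraries lay under all 3 vehicles for 59 members in SW1783 and for 64 in HT29. Fitted log2 fold changes were below 0 for 71 and 77 members, MRPS6 being the exception in HT29. Neither count is set against a share over all genes, so neither is read as particular to the members. In bulk samples a lower share of cells that express a gene and less RNA per cell cannot be told apart.

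Short transcripts as a class also moved with wortmannin. Protein-coding genes outside the members with transcripts of 1500 bases or fewer had medians of -0.08, -0.10 and -0.07 in SW1783 and -0.19, -0.21 and -0.21 in HT29, against 0.04 to 0.05 for transcripts over 4000 bases in HT29. With trends on transcript length and GC content removed per library, 30 members were lower in SW1783 and 24 in HT29. This alternative was added after the data were seen, and the share of all genes lower in it is not given beside these counts. The median of the members was then -0.14 and -0.15, and MRPS6 was called higher in both (0.16, adjusted p = 0.035 and 0.23, adjusted p = 0.0047, DESeq2). In HT29 leaving out 1 wortmannin library left 18 to 23 members lower, again without a share of all genes. Vehicle replicate 1 stood above the other vehicles in 67 of 78 members.

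**Figure D2:**
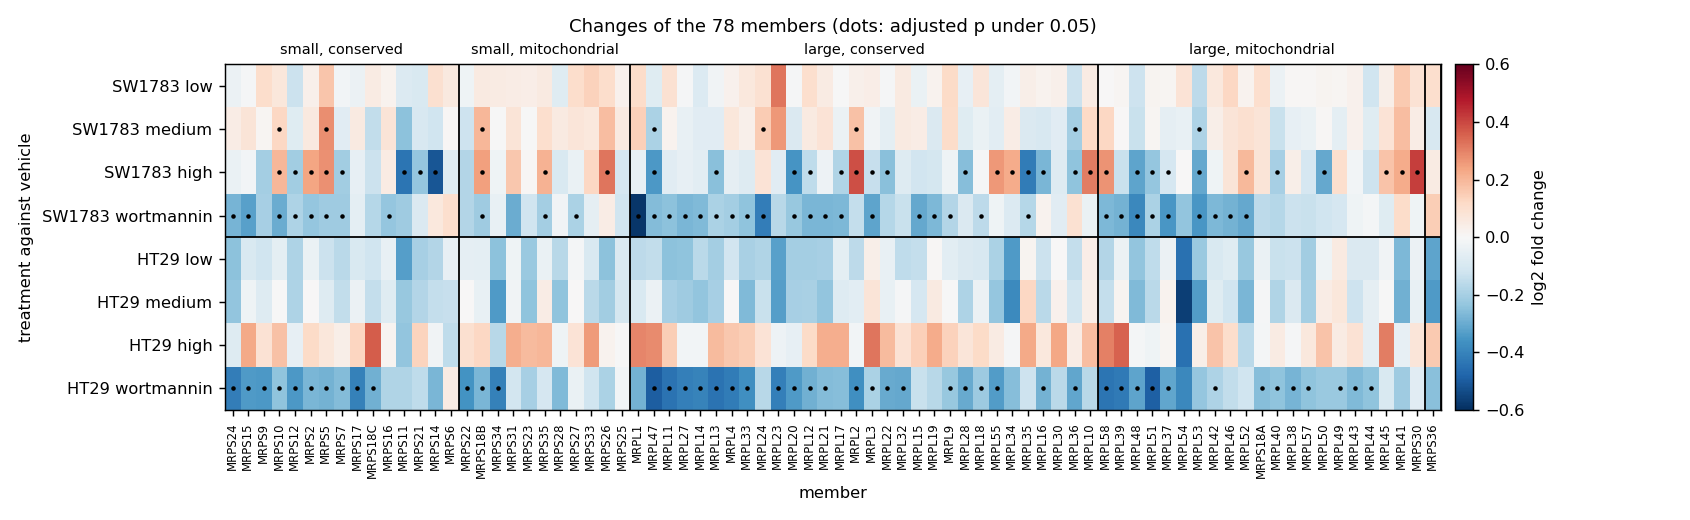
Log2 fold change of each of the 78 members (columns, grouped by subunit and by conservation) under each treatment against the vehicle of its batch (rows). Dots mark an adjusted p-value under 0.05. The wortmannin rows are mostly blue, with 39 dots in SW1783 and 47 in HT29. The SW1783 high dose row holds 15 red and 22 blue dots, and the 3 HT29 extract rows hold 0.

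In both lines the falls were spread over both subunits. In SW1783, 8 of 15 conserved and 3 of 11 mitochondria-specific small subunit members were lower, and 19 of 30 conserved and 9 of 21 mitochondria-specific large subunit members. In HT29 the counts were 10 of 15, 3 of 11, 21 of 30 and 13 of 21. The 9 members of the central protuberance, which lies at the contact between the subunits, had a median of -0.27 in SW1783 (6 lower) and -0.28 in HT29 (7 lower). The 8 members around the exit of the peptide tunnel had medians of -0.22 (4 lower) and -0.28 (5 lower), and the 5 of the stalks -0.25 (3 lower) and -0.29 (2 lower). MRPS36 was not called in either line, at 0.15 (adjusted p = 0.243) in SW1783 and -0.25 (adjusted p = 0.147) in HT29 by DESeq2. Its difference between the lines was 0.37 (adjusted p = 0.075, DESeq2).

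MRPL1, a protein of the stalk beside the site where spent tRNA leaves, had the largest fall in SW1783. It stood at 358, 341 and 355 normalized counts with wortmannin and at 526, 534 and 521 with vehicle. The groups did not overlap, as the rule for naming members required, and the log2 fold change was -0.59 ± 0.0925 (SE; adjusted p = 3.5e-09, DESeq2). It was the one member past 1.5-fold, by less than rounding shows, and fell short of that size with edgeR (-0.58), with size factors from nuclear protein-coding genes (-0.57) and with length and GC trends removed (-0.51). In HT29 MRPL1 was at 584, 595 and 546 against 842, 637 and 629, which gave -0.28 (adjusted p = 0.083, DESeq2). MRPL24, which lines the exit of the peptide tunnel, was at 828, 899.7 and 925 against 1148, 1186 and 1207 in SW1783, a change of -0.42 (adjusted p = 1.4e-09, DESeq2). MRPL48, of the central protuberance, was at 263, 268 and 257 against 365, 342 and 322, a change of -0.39 (adjusted p = 0.0029, DESeq2). For both of these members the treated libraries lay under every vehicle library, which was a condition for naming a member here.

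In HT29 the largest falls were those of MRPL47, MRPL51 and MRPL13. MRPL47, a conserved protein near the tunnel exit, was at 635, 643 and 601 with wortmannin and at 1051, 786 and 822 with vehicle, a log2 fold change of -0.50 ± 0.116 (SE; adjusted p = 3.3e-04, DESeq2). MRPL51, a mitochondria-specific protein of the large subunit, was at 1707, 1684 and 1815 against 2799, 2219 and 2298 (-0.49, adjusted p = 4.02e-06, DESeq2). MRPL13, a conserved large subunit protein, was at 2554, 2510.4 and 2482 against 3847, 3270.3 and 3165 (-0.45, adjusted p = 1.1e-06, DESeq2). In each of the 3 members the wortmannin libraries were close together and vehicle replicate 1 was the highest library. The groups did not overlap, as the rule for naming members required. The same members were lower in SW1783, by -0.26, -0.19 and -0.19.

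**Figure D3:**
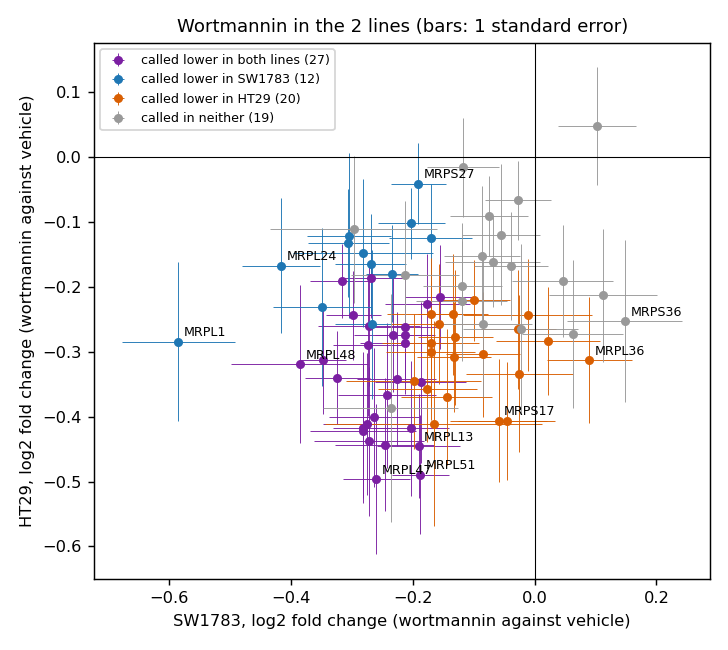
Log2 fold change with wortmannin in SW1783 (x axis) and HT29 (y axis) for the 78 members, with bars of 1 standard error and colours by call. Purple marks the 27 members lower in both lines, blue the 12 lower in SW1783, orange the 20 lower in HT29 and grey the 19 called in neither.

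The lists of both lines overlapped in 27 members, which were 69.2% of the 39 in SW1783 and 57.4% of the 47 in HT29, where 60.3% of all members were lower. They included MRPL11, MRPL12, MRPL47, MRPL48, MRPL51, MRPS2, MRPS5, MRPS7, MRPS10, MRPS12 and MRPS24. A difference between the lines passed the test for 3 members, 2 with the more positive change in SW1783 (5.6% of 12993 genes) and 1 with the more positive change in HT29 (10% of genes), so that for most members called in a single line a difference between lines was not shown. For MRPL36, a small conserved protein of the large subunit, the log2 ratios to the vehicle mean were 0.13, 0.06 and 0.10 in SW1783 and -0.29, -0.30 and -0.28 in HT29, and the difference was 0.38 (adjusted p = 0.0075, DESeq2). For MRPS17, of the small subunit, they were -0.04, -0.06 and -0.05 against -0.34, -0.41 and -0.40, a difference of 0.32 (adjusted p = 0.025, DESeq2). For MRPS27, a pentatricopeptide repeat protein of the small subunit, they were -0.19, -0.16 and -0.21 against -0.07, 0.04 and -0.02, a difference of -0.17 (adjusted p = 0.028, DESeq2). The ratios of the lines did not overlap in any of the 3, which was a condition for naming them. Since each ratio is to the vehicle mean, it leaves out the spread of the vehicles. MRPS27 lost the call with edgeR (adjusted p = 0.109) and in 9 of the 12 fits that left out 1 library, MRPS17 in 7 of these and MRPL36 in 0. With the replicate number as a block, all 3 lost the call, though these numbers were not taken as pairs. MRPS17 overlaps a read-through gene on the same strand, so that its counts are uncertain.

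Promoter sequences are shown for members that fell with wortmannin in both lines, since genes that move together may carry shared letters at their starts. RefSeq promoters (GRCh38.p14, 250 bases before to 50 after the start site) were found for 69 of the 78 members. The letters CCGGAAG, a core of sites bound by ETS factors such as GABPA, occurred on either strand in 29 of 69 member promoters (42%) and in 14.4% of 15345 protein-coding promoters. A form of the YY1 motif, whose letters are the long run of capitals in the MRPS24 promoter printed here, occurred in 18.8% of member promoters and in 1.97% of all. The NRF1 motif occurred in 11.6% against 8.6%, CCAAT in 29% against 36.6%, CACGTG in 8.7% against 8.89% and GGGCGG in 60.9% against 59.2%. Among the 25 members with a promoter that were lower in both lines, 40% held the ETS letters and 16% the YY1 letters, against 43.8% and 12.5% of the 16 called in neither line. Such matches are descriptions of letters and not of binding. The 3 promoters with the ETS letters and the largest mean fall follow, and then the first 2 of the remaining members with the YY1 letters, with both motifs in capitals. They lie at chr3:179604589-179604888 (minus strand), chr17:75012420-75012719 (plus strand), chr11:73787624-73787923 (plus strand), chr7:43869468-43869767 (minus strand) and chr6:42217812-42218111 (minus strand). MRPL58 is a peptidyl-tRNA hydrolase built into the large subunit, and MRPS10 is a protein of the head of the small subunit.
MRPL47: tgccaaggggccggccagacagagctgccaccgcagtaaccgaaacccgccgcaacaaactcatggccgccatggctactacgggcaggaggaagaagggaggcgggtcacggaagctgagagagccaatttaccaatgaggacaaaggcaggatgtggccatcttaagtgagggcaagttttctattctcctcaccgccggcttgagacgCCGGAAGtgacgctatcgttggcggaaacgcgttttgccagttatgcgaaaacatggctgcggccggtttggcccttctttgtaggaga
MRPL58: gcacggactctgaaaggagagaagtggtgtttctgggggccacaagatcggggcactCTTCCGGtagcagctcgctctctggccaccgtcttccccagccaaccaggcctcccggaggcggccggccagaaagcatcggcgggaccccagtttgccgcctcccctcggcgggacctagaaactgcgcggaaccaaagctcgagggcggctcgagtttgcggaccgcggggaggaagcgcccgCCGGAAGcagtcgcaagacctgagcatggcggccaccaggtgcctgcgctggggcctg
MRPL48: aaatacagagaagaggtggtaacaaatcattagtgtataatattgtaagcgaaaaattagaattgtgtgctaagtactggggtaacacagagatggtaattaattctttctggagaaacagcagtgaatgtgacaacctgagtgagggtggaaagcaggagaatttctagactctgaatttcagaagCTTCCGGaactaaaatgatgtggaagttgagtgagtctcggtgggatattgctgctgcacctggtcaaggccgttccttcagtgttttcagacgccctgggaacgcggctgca
MRPS24: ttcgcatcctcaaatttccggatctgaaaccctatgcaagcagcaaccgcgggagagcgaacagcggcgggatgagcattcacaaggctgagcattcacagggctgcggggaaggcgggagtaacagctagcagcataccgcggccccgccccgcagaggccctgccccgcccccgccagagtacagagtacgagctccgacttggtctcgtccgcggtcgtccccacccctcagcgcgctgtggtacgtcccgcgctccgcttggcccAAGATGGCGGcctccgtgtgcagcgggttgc
MRPS10: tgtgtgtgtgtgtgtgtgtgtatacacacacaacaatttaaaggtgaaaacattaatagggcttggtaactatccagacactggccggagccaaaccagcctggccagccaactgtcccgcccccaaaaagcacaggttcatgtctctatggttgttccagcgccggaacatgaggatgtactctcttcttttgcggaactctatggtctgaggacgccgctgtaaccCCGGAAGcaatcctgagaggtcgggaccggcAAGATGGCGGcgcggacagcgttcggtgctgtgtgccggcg
In MRPS24 and MRPS10 the YY1 letters began 20 and 10 bases past the start site, and in MRPS10 the ETS letters began 22 bases before it.

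With the ACD high dose in SW1783, members were called in both directions, as were genes at large. There 15 of 78 were higher and 22 were lower, against 23.1% higher and 21.9% lower of 20050 genes, and against 35.8% and 31.4% of abundant genes. The shares of members, 19.2% and 28.2%, were below those of abundant genes in both directions. Their median log2 fold change was -0.06 and 0 passed the stricter call, against 17.7% of all genes. The 3 high dose libraries had member medians of -0.08, -0.06 and -0.06. Summed over the members, the level was 3016 ± 36.3 CPM (SD, n = 3) at the high dose against 3318 ± 18.2 in vehicle, in libraries where the mitochondrial ribosomal RNAs took 5.93% of counts against 0.932% in vehicle. Scaled to the counts of nuclear protein-coding genes alone, the mean sums were 3385 and 3562. By class, 11 of the 30 conserved large subunit members were lower and 4 higher, 6 and 5 of the 21 mitochondria-specific large subunit members, 5 and 3 of the 15 conserved small subunit members, and 0 and 3 of the 11 mitochondria-specific small subunit members.

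**Figure D4:**
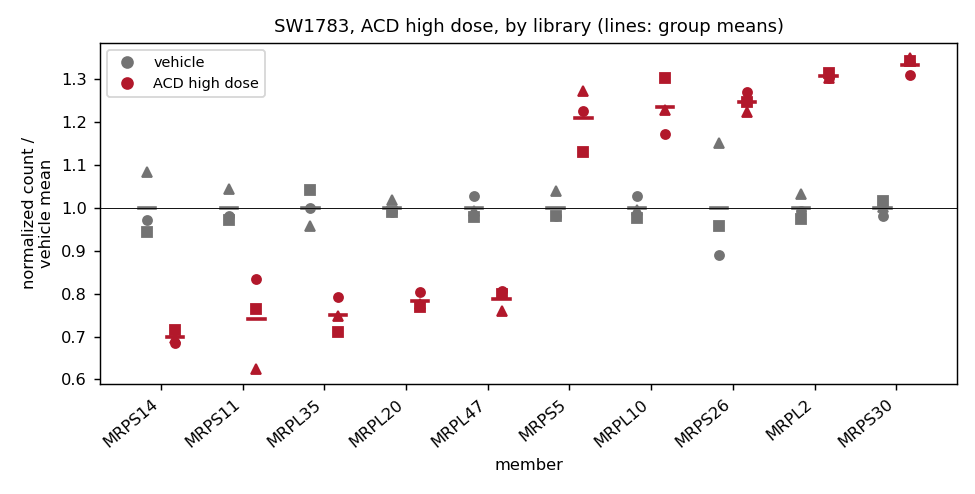
Normalized counts of the 5 members with the largest falls and the 5 with the largest rises at the high dose in SW1783, each divided by its vehicle mean (grey: vehicle libraries, red: high dose libraries, lines: group means, symbols: replicates 1 to 3). High dose libraries lie under every vehicle library for MRPS14, MRPS11, MRPL35, MRPL20 and MRPL47 and over every vehicle library for MRPS5, MRPL10, MRPS26, MRPL2 and MRPS30. That separation was a condition for choosing these members.

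The largest fall was that of MRPS14, a conserved protein of the head of the small subunit. It was at 344, 359 and 349 normalized counts with the high dose and at 487, 473 and 543 with vehicle, a log2 fold change of -0.51 ± 0.0884 (SE; adjusted p = 3.5e-08, DESeq2). MRPS11, of the small subunit platform, was at 383, 350.5 and 287 against 451, 447 and 479.8 (-0.44, adjusted p = 1.4e-04, DESeq2), the widest spread of these members. MRPL35 was at 602, 541 and 568 against 760.3, 791 and 727 (-0.42, adjusted p = 6.3e-08, DESeq2). MRPL20, whose bacterial counterpart binds ribosomal RNA early in assembly, was at 713, 681 and 688 against 877, 878 and 903 (-0.35, adjusted p = 1.9e-07, DESeq2). MRPL47 was at 1097, 1088 and 1034 against 1401, 1333 and 1351 (-0.34, adjusted p = 3.3e-09, DESeq2). These 5 members all belong to the conserved classes. Expected counts of MRPS11, MRPL20, MRPL47 and MRPS14 were not whole in 36, 29, 12 and 3 libraries, so that their counts are uncertain.

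Among the rises, MRPS30 was the largest, a mitochondria-specific protein that sits in the large subunit in spite of its name. It was at 1555, 1593 and 1601 normalized counts with the high dose and at 1164, 1206 and 1191 with vehicle, a log2 fold change of 0.42 ± 0.0517 (SE; adjusted p = 7.05e-15, DESeq2). MRPL2, a protein near the peptidyl transferase centre, was at 932, 939.7 and 932 against 710.1, 697 and 738 (0.39, adjusted p = 3.5e-08, DESeq2). For both members the treated libraries were close together and, as the naming rule required, above every vehicle. Expected counts of MRPL2 were not whole in 18 libraries, so that its counts are uncertain. MRPS26 was at 709.6, 696 and 683 against 497, 534 and 643 (0.32, adjusted p = 7.2e-04, DESeq2), with vehicles spread more widely than the treated libraries. MRPL10, at the base of the stalk that recruits translation factors, was at 1080.1, 1200.0 and 1129.9 against 946, 899.8 and 916 (0.31, adjusted p = 2.4e-06, DESeq2). MRPS5, a conserved small subunit protein, was at 809, 747 and 841 against 648, 647 and 686 (0.27, adjusted p = 0.0011, DESeq2).

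The paralogs MRPS18A, MRPS18B and MRPS18C, which occupy different places in the ribosome, did not share a change at the high dose in SW1783. MRPS18B was higher, at 1940.2, 1913 and 1884 against 1662, 1573 and 1595 normalized counts (0.25, adjusted p = 1.9e-07, DESeq2). MRPS18A was at 633, 565 and 616 against 543, 562 and 613 (0.08, adjusted p = 0.493) and MRPS18C at 513, 523 and 495 against 564, 559.8 and 548 (-0.13, adjusted p = 0.194). With wortmannin MRPS18B was lower in both lines (-0.21 and -0.27), and MRPS18A and MRPS18C were called in HT29 (-0.26 and -0.29) but not in SW1783 (-0.16 and -0.17). Expected counts of MRPS18A and MRPS18C were not whole in 36 and 35 of the 36 libraries, so that reads were divided between positions and their counts are uncertain. In HT29 both lost the wortmannin call with length and GC trends removed (-0.12 and -0.15).

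At the medium dose in SW1783, 5 members were higher and 3 lower, against 15.1% and 14.5% of 14082 genes, which put the shares of members at 6.41% and 3.85%. The largest rise was that of MRPS5, at 809, 744 and 848 normalized counts against 648, 647 and 686 (0.28, adjusted p = 0.002, DESeq2), close to its values at the high dose. MRPS18B was at 1785, 1879 and 1882 against 1662, 1573 and 1595 (0.20, adjusted p = 8.2e-05, DESeq2). MRPL36 was at 549, 569 and 591 against 667, 634 and 673 (-0.21, adjusted p = 0.023, DESeq2) and MRPL47 at 1244, 1171 and 1168 against 1401, 1333 and 1351 (-0.19, adjusted p = 0.0032, DESeq2). The doses share their vehicle libraries. At the low dose, where 71 of the 78 members received an adjusted p-value, 0 were called by DESeq2 or by edgeR, where 2.24% of 8707 genes were higher and 1.33% lower, and 3 members had an unadjusted p-value under 0.05 with a rise and 1 with a fall. The median SE of a member there was 0.0715 on the log2 scale.

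In HT29 no member was called at any ACD dose by DESeq2 with all dose groups in the fit. At the high dose 4.34% of 15300 genes were higher and 3.92% lower, and 4 members had an unadjusted p-value under 0.05, all with a rise. At the medium dose (1.1% higher and 0.881% lower of 17026 genes) 4 members passed the unadjusted threshold with a fall, and at the low dose (0.27% and 0.276%) 1 did. EdgeR also called 0 members at each dose, whereas DESeq2 on the medium dose and vehicle libraries alone called 3 lower (MRPL34, MRPL54 and MRPS34), against 2.25% of genes in that fit. The members' median log2 fold changes were 0.09, -0.12 and -0.13 at the high, medium and low dose, with a median SE of 0.158 at the high dose against 0.072 in SW1783.

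HT29 high dose replicate 2 differed from its group. Its member median was 0.46 on the log2 scale relative to the vehicle mean and all 78 members lay above that mean, against -0.15 and -0.11 in replicates 1 and 3. The summed member level was 5309 CPM in it and 3791 and 3944 in the others. Other short transcripts moved with it, with a median of 0.34 for genes of 1500 bases or fewer and -0.20 for those over 4000 bases, whereas replicates 1 and 3 were at -0.18 and -0.15 for short genes. Without this library 12 members were lower and 0 higher, where 7.93% of genes were lower, and the median was -0.13. Among members chosen after their values were seen, the largest fall was then that of MRPL54 (-0.80, adjusted p = 2.1e-04), followed by MRPS11 (-0.47, adjusted p = 5.3e-04) and MRPL14 (-0.43, adjusted p = 0.0054, DESeq2). With length and GC trends removed and all libraries kept, 8 members were higher and 0 lower, counts without the share of all genes in that fit. The sign of the median at the HT29 high dose therefore changed with this library, and the part of its transcript length trend in the values was not tested further.

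The difference between the lines in the high dose response passed the test for 9 members. MRPS30 had the more positive change in SW1783 (1 member, against 13.2% of 17713 genes) and 8 members had the more positive change in HT29 (against 15.7%). For MRPL35 the log2 ratios to the vehicle mean were -0.36, -0.52 and -0.45 in SW1783 and 0.06, 0.56 and 0.06 in HT29, a difference of -0.68 (adjusted p = 2.1e-05, DESeq2). For MRPL47 they were -0.34, -0.35 and -0.42 against -0.14, 0.86 and -0.06 (-0.66, adjusted p = 0.031, DESeq2), and for MRPS14 -0.57, -0.51 and -0.55 against -0.31, 0.40 and -0.18 (-0.53, adjusted p = 0.017, DESeq2). For MRPS30 they were 0.37, 0.40 and 0.40 against 0.06, 0.21 and -0.00 (0.30, adjusted p = 4.3e-04, DESeq2). In each of these members the highest HT29 library was replicate 2. Without it MRPL35 (-0.51), MRPL3 (-0.28), MRPL19 (-0.22) and MRPS30 (0.36) were still called, whereas MRPL47 and MRPS14 were not. In that fit 9 members had the more positive change in SW1783, a count without the share of all genes beside it.

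Between the vehicle groups the lines differed in most members. In batch B, 45 of 78 were higher in HT29 and 9 were higher in SW1783, against 29.2% and 32.9% of 24197 genes and against 41.7% and 44% of abundant genes. The median log2 difference, SW1783 minus HT29, was -0.31, where that of all genes tested was 0.05. By the stricter call 23 of 78 members were higher in HT29 and 3 in SW1783, against 23% and 27.2% of genes. Among abundant genes these shares were 29% and 32.4%, so that the count higher in HT29 was near the background. MRPL13 differed most, at 883, 916 and 921 normalized counts in SW1783 and 3828, 3161 and 3166 in HT29 (-1.90 ± 0.0912 (SE), adjusted p = 3.5e-95, DESeq2). MRPL48 was at 330.2, 323 and 310.4 against 1243, 848 and 862 (-1.61, adjusted p = 1.7e-24, DESeq2) and MRPL16, which lies near the tRNA sites, at 489, 533 and 499 against 1524, 1371 and 1406 (-1.50, adjusted p = 5.7e-71, DESeq2). No library of these members overlapped between the lines, which was again a condition for naming them.

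**Figure D5:**
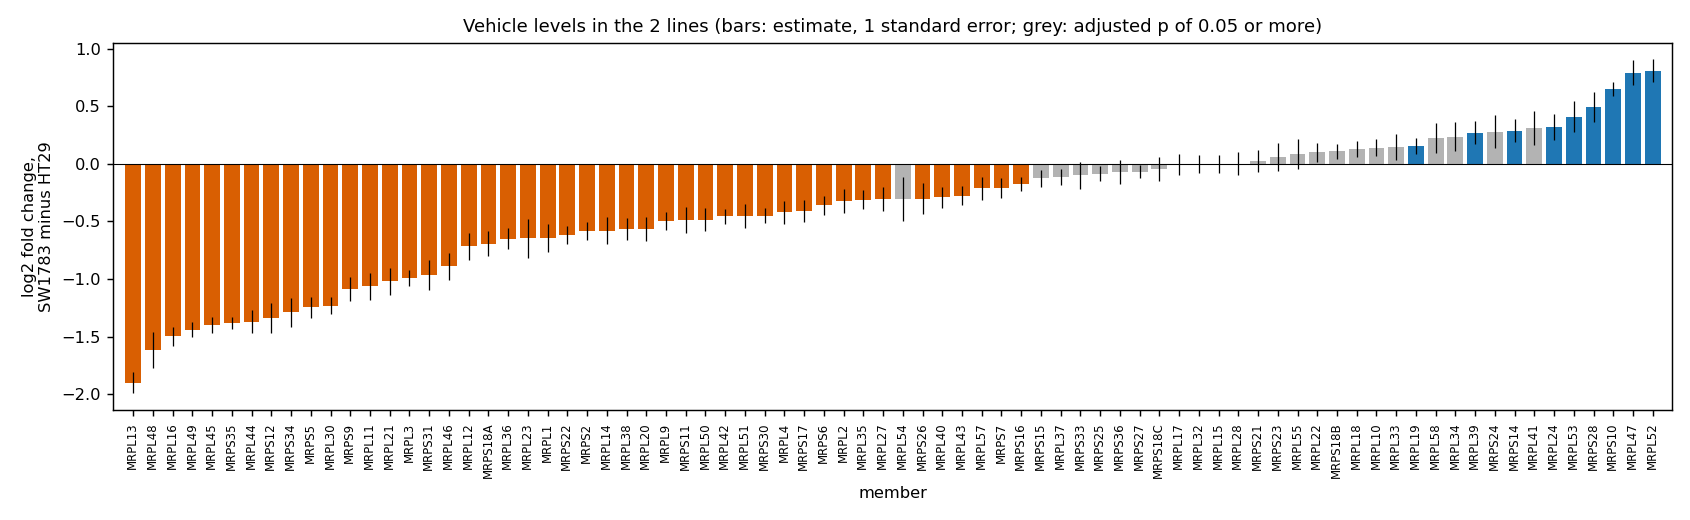
Log2 difference of the vehicle levels, SW1783 minus HT29, for the 78 members in batch B, with bars of 1 standard error around each estimate. Orange bars (45) were higher in HT29 and blue bars (9) higher in SW1783 at an adjusted p-value under 0.05, and they run from -1.90 for MRPL13 to 0.81 for MRPL52.

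The other members past the stricter call and higher in HT29 were MRPL49 (-1.44), MRPL45 (-1.40), MRPS35 (-1.38), MRPL44 (-1.37), MRPS12 (-1.34), MRPS34 (-1.29), MRPS5 (-1.24), MRPL30 (-1.23), MRPS9 (-1.09), MRPL11 (-1.06), MRPL21 (-1.02), MRPL3 (-0.99), MRPS31 (-0.97), MRPL46 (-0.89), MRPL12 (-0.72), MRPS18A (-0.69), MRPL36 (-0.65), MRPL23 (-0.65), MRPL1 (-0.65) and MRPS22 (-0.62). Higher in SW1783 were MRPL52, a mitochondria-specific large subunit protein, at 752, 804 and 829 against 502, 440.1 and 425 normalized counts (0.81, adjusted p = 7.1e-16, DESeq2), MRPL47 at 1525, 1446 and 1471 against 1015, 783 and 776 (0.79, adjusted p = 1.8e-12, DESeq2) and MRPS10 at 2142, 2016 and 2036 against 1355, 1299 and 1300.0 (0.65, adjusted p = 1e-25, DESeq2). The paralogs differed here too, since MRPS18A was higher in HT29 while MRPS18B (0.11, adjusted p = 0.15) and MRPS18C (-0.05, adjusted p = 0.726) were not called. With length and GC trends removed, 37 members were higher in HT29 and 19 in SW1783, and the median was -0.14. These counts stand without the share of all genes in that fit. Between the vehicles of batches A and B 0 members were called in either line, against 0.00348% of genes in SW1783 and 0% in HT29.

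Other genes that the mitochondrial ribosome needs were counted from lists written beside the members. Of 5 further ribosomal proteins with other symbols, wortmannin lowered 2 in SW1783, DAP3 (-0.28) and AURKAIP1 (-0.22), and 4 in HT29, with GADD45GIP1 at -0.52. Of 27 assembly factors, which modify ribosomal RNA or help join the subunits, 6 were lower and 2 higher with wortmannin in SW1783 and 7 lower and 0 higher in HT29. The shares lower, 22.2% and 25.9%, stood beside 23.7% and 13.9% of abundant genes, so that in SW1783 the list was near the background. C1QBP, a matrix chaperone-like protein, fell in both (-0.43 and -0.33). Of 18 translation factors and mRNA partners, 6 were lower in SW1783 and 7 in HT29 and 0 were higher, with SLIRP, the partner of LRPPRC in keeping mitochondrial messages stable, at -0.51 and -0.54. The shares lower were 33.3% and 38.9%, read against the same backgrounds.

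At the ACD high dose in SW1783, 7 translation factors were higher, among them the ribosome recycling factor GFM2 (0.47) and the initiation factors MTIF3 (0.44) and MTIF2 (0.40), and 3 were lower, with TSFM at -0.39. The 38.9% of 18 that were higher were near the 35.8% of abundant genes called higher at this dose, and the 16.7% lower were below the 31.4% called lower. In HT29 5 were higher and 0 lower, with MTIF2 at 0.32 (adjusted p = 8.7e-04, DESeq2). The share higher was 27.8% of the list, against 4.34% of all genes and 5.4% of abundant genes. That fit holds HT29 high dose replicate 2, and values of this list without it are not given. Of 16 genes of mitochondrial DNA expression, 4 were higher and 7 lower in SW1783, with the RNA helicase SUPV3L1 at 1.08 and the RNA polymerase POLRMT at 0.74 against MTERF1 at -0.69 and TEFM at -0.61. Their shares were 25% and 43.8%, against the same 35.8% and 31.4%. Of 9 regulators of mitochondrial gene expression, MYC rose by 1.60 in SW1783, with ESRRA at 0.46 and YY1 at 0.23, and these 3 were 33.3% of the list, near the background. With wortmannin YY1 and GABPA were at 0.14 (adjusted p = 9.4e-04) and 0.16 (adjusted p = 0.04) in SW1783 by DESeq2, and no regulator was called in HT29.

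The other 2 nuclear-encoded sets counted were respiratory chain subunits and cytosolic ribosomal proteins. With wortmannin, 36 of 76 respiratory chain subunits were lower and 0 higher in SW1783 (median -0.13) and 59 and 0 in HT29 (median -0.36). Of abundant genes, 23.7% and 13.9% were called lower. With length and GC trends removed, 29 of these subunits were lower and 0 higher in SW1783 (median -0.10). In HT29 39 were then lower and 1 higher (median -0.17). Of the cytosolic ribosomal proteins, 39 of 83 tested were lower and 6 higher in SW1783 (median -0.06) and 28 of 81 lower and 0 higher in HT29 (median -0.22). With those trends removed, 27 were lower and 16 higher in SW1783 (median -0.02) and 11 and 5 in HT29 (median -0.04). The share of all genes in that alternative is not given beside these counts. At the high dose in SW1783, 39 respiratory chain subunits were lower and 6 higher (median -0.16), and 34 of 84 cytosolic ribosomal proteins were higher and 3 lower (median 0.10). Of the members, 22 were lower and 15 higher, and of abundant genes 31.4% were lower and 35.8% higher. These are counts and medians, and no test of a difference between the sets was made.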

How the data were processed

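The study made mRNA libraries from total RNA of SW1783 and HT29, and the 36 libraries were sequenced. Per the labels, the authors checked reads with FastQC 0.11.9, trimmed them with Trim Galore 0.6.5, aligned them with STAR 2.7.3a and quantified genes with RSEM 1.3.3. The deposited values are expected counts from RSEM, not normalized by the authors. They were rounded here to whole numbers, since 8.84% of the values were not whole. RSEM divides reads with several positions by a model. Of the 78 members, 46 had whole counts in all libraries, 36 had a named pseudogene and 21 overlapped another gene on the same strand. The methods of the study give the build both as GRCh38 and as hg19. Transcript lengths and gene types are from GENCODE 44, and 60675 genes were in the table.

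Tests were Wald tests of DESeq2 1.42.0 in R 4.3.3 on the whole table, two-sided, with Benjamini-Hochberg adjustment over the genes of a contrast and the libraries of 1 line and batch in a fit. Differences between the lines were interaction terms over the libraries of a batch. A member was called higher or lower at an adjusted p-value under 0.05, and the study's stricter call adds a change over 1.5-fold. Named members had a mean normalized count of 100 or more, an adjusted p-value under 0.05 and 3 libraries of one group on one side of all 3 of the other, and were the 5 largest of each sign at the high dose, 3 with wortmannin, between lines and between vehicles, and 2 at the lower doses. Members past the stricter call, the highest and lowest per length, MRPS18A to MRPS18C and MRPS36 were named too. The members, lists and tests were chosen with earlier results of these data known. Alternatives were edgeR 4.0.16 (quasi-likelihood), TMM size factors, size factors from nuclear protein-coding genes, a low-count filter, fits on the compared groups alone, the replicate number as a block, leaving out each library, batch A vehicles and removal of length and GC trends. The fits were tested on simulated data. Depth was 15941255 to 33866644 counts per library, and a count of 0 allows 3 counts, or 0.0886 to 0.188 CPM, for counting error only. Figures were drawn with matplotlib 3.10.9.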

Additional observations from a re-analysis of the deposited data

Results flagged for a closer look

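Members whose response differed between SW1783 and HT29, by an interaction term in DESeq2 with Benjamini-Hochberg adjustment over all genes, and whose libraries did not overlap between the lines, are the results to look at again. At the ACD high dose the log2 change in SW1783 minus that in HT29 was -0.68 for MRPL35, -0.66 for MRPL47, -0.53 for MRPS14 and 0.30 for MRPS30. MRPL35 and MRPS30 kept the call without HT29 high dose replicate 2 (-0.51 and 0.36), and MRPL47 and MRPS14 did not. With wortmannin the difference was 0.38 for MRPL36, 0.32 for MRPS17 and -0.17 for MRPS27. MRPS27 lost the call with edgeR (adjusted p = 0.109). MRPS17 lost the call in 7 and MRPS27 in 9 of the 12 fits that left out 1 library, and MRPL36 in 0. With the replicate number as a block, each of these wortmannin differences lost the call. With length and GC trends removed, the wortmannin change of MRPL36 was 0.14 in SW1783 and -0.09 in HT29.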

How the results depend on the processing

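No named member called in the main comparison changed sign under an alternative. Counts of members under the alternatives stand without the share of all genes, except where a share is printed beside them. At the high dose in HT29, where 0 were called, 12 members were lower without replicate 2 and 8 were higher with length and GC trends removed, and MRPS36 went from 0.16 to -0.31 without replicate 2. Of 1275 values of named members under alternatives, 1209 kept their side of the threshold, 56 lost the call and 10 gained it. With the 1.5-fold threshold added, 0 members higher and 0 lower were left at the high and medium dose in SW1783, 1 lower with wortmannin in SW1783 and 0 in HT29, 0 and 2 (SW1783 and HT29 direction) in the high dose difference between the lines, 0 and 0 in that of wortmannin, and 3 and 23 between vehicles. EdgeR gave 5 lower at the medium dose in SW1783, 1 higher with wortmannin in SW1783, a median of -0.25 with wortmannin in HT29, 3 and 5 in the high dose difference, 6 and 0 with a median of 0.11 in the wortmannin difference and a vehicle median of -0.33. TMM size factors gave 6 and 0 with a median of 0.12 in the wortmannin difference and a vehicle median of -0.34. Size factors from nuclear protein-coding genes gave a median of -0.17 with wortmannin in SW1783, 2 and 5 in the high dose difference, 6 and 0 with a median of 0.10 in the wortmannin difference and a vehicle median of -0.35. The low-count filter gave 5 in the SW1783 direction for wortmannin. Fits on the compared groups alone gave 3 lower at the medium dose in HT29 and 1 in the HT29 direction of the high dose difference.

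With length and GC trends removed, chosen after seeing the data, there were 5 lower and a median of 0.0012 at the medium dose in SW1783, 1 higher and a median of -0.14 with wortmannin in SW1783, 8 higher at the high dose in HT29, medians of 0.0035 and -0.016 at the medium and low dose in HT29, 1 higher and 24 lower with a median of -0.15 with wortmannin in HT29, 3 and 21 in the high dose difference, 6 in the HT29 direction and a median of -0.012 for wortmannin, and 19 higher in SW1783 with a median of -0.14 between vehicles. The replicate numbers were not taken as pairs, since no treatment and vehicle group had a correlation of deviations over 0.1 in all 3 same-numbered pairs (0.011 to 0.053 with wortmannin in SW1783 and -0.053 to 0.16 in HT29, with 12 of 42 pairs over 0.1 in all). The SW1783 low and medium doses, which were not compared with each other, did (0.12 to 0.19, against -0.16 to -0.0062 for different numbers). With the replicate number as a block, 2 higher and 1 lower were left at the medium dose in SW1783, 24 lower with wortmannin in SW1783 and 25 in HT29, 4 in the HT29 direction of the high dose difference, and 0 and 0 for wortmannin (adjusted p = 0.129 for MRPL36, 0.275 for MRPS17 and 0.426 for MRPS27, DESeq2).

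Leaving out each library in turn gave, as median, members higher and members lower, -0.063 to -0.046, 12 to 14 and 17 to 20 at the high dose in SW1783, 0.0036 to 0.019, 2 to 4 and 1 to 2 at the medium dose, 0.021 to 0.036, 0 and 0 at the low dose, and -0.20 to -0.18, 0 to 1 and 31 to 41 with wortmannin. In HT29 it gave -0.13 to 0.18, 0 to 2 and 0 to 12 at the high dose, -0.17 to -0.037, 0 and 0 at the medium dose, -0.18 to -0.042, 0 and 0 at the low dose, and -0.31 to -0.19, 0 and 18 to 44 with wortmannin. In the SW1783 and HT29 directions it gave 1 to 9 and 3 to 22 (median -0.30 to 0.024) for the high dose difference, 1 to 6 and 0 to 6 (median -0.0033 to 0.11) for wortmannin, and 4 to 14 and 40 to 47 (median -0.37 to -0.25) for vehicles. For HT29 wortmannin the counts were 23, 18 and 19 lower without wortmannin replicates 1, 2 and 3. The 22 and 19 of the high dose difference came without HT29 high dose replicates 1 and 3, the 3 and 9 without replicate 2, and the 14 higher in SW1783 between vehicles without HT29 vehicle replicate 1. The causes were not tested. With 3 libraries a group, members with small changes were at the limit of detection.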
